A study of Mus musculus with 7 samples.

Results

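The genes for the proteins of the cytosolic ribosome were examined in a chromatin accessibility table of freshly sorted airway macrophages (AMs). All peaks whose gene symbol was Rpl or Rps followed by a number, with or without a letter or l-number suffix, were taken. The S6 kinase genes (Rps6k) and names with -ps were left out. This gave 190 of 90376 peaks, assigned to 70 genes. The assay was ATAC-seq: a transposase inserts sequencing adapters where DNA is not packed into nucleosomes, and the reads of a peak therefore measure how accessible the region is. *Scnn1b*-Tg mice carry a transgene for the beta subunit of the airway sodium channel ENaC under the club cell secretory protein promoter, that is, in airway epithelium and not in the macrophages, and develop muco-obstructive lung disease. AMs (CD45+Siglec-F+CD11c+) came from female mice aged 6 weeks on a C57BL/6 background and were used fresh, without culture. There were 4 *Scnn1b*-Tg libraries and 3 wild-type (WT) littermate libraries, with 20971521 to 56121809 reads in peaks in *Scnn1b*-Tg and 28248016 to 39162909 in WT.

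The ribosome is built from a large and a small subunit, and the Rpl and Rps proteins are their parts. The proteins are made in near-equal amounts in every growing cell. Their messages start with a pyrimidine tract, the TOP motif, through which mTORC1 and the RNA-binding protein LARP1 set how much of them is translated. Their promoters are compact and of the housekeeping kind, with sites for GABP and other ETS factors, YY1 and SP/KLF factors among the best known. ATAC-seq reads the opening of these promoters and says nothing of translation.

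Of the 190 peaks, 76 (40%) lay within 1 kb of a transcription start, against 21.9% of all peaks. For each gene the peak nearest its start within 1 kb was taken as the start peak. This gave 66 start peaks, 39 of large subunit and 27 of small subunit genes, out of 13629 start peaks of all genes. Of the 70 genes, 4 had peaks but no start peak by this rule, *Rpl26*, *Rpl32* and *Rps21* among them. In 65 of the 66 the annotated start lay inside the peak, which reached a median of 605.5 bp upstream and 712 bp downstream of it. A further 23 peaks lay within 3 kb of a start beside these, and 101 lay further away.

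The sequences below show the known promoter strings that some start peaks of this family carry, chosen to show each kind. Of 49 such windows, 21 have a pyrimidine tract within 5 bases of the RefSeq start and 13 have neither a string nor a tract. The set printed is therefore richer in both than the family. They run from 100 bases before to 10 bases after a RefSeq start (build GRCm38.p6, the coordinates of mm10), 5′ to 3′ on the gene's strand. Capitals mark matches to the motif strings named further on, on either strand, and a pyrimidine tract that begins with C within 5 bases of the start. Where a motif and the tract overlap, they form 1 run of capitals.
*Rpl13a* (chr7:45128736-45128845, minus strand): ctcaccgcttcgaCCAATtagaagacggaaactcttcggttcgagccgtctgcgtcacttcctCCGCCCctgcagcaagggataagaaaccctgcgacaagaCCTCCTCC
*Rpl15* (chr14:18270977-18271086, minus strand): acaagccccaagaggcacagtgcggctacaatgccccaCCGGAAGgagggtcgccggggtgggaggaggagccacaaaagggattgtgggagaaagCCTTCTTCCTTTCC
*Rpl34* (chr3:130730328-130730437, minus strand): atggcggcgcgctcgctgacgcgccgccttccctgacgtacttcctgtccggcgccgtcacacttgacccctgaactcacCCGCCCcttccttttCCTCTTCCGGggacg
*Rps6* (chr4:86857358-86857467, minus strand): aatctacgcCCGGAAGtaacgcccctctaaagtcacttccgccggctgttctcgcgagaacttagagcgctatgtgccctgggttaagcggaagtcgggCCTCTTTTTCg
*Rps15a* (chr7:118116138-118116247, minus strand): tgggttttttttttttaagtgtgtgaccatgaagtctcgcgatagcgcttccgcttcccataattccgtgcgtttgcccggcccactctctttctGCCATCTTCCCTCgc
*Rps10* (chr17:27635235-27635344, minus strand): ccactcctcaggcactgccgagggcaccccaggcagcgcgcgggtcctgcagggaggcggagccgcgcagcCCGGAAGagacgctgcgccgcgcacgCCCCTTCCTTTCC
*Rpl22l1* (chr3:28805408-28805517, plus strand): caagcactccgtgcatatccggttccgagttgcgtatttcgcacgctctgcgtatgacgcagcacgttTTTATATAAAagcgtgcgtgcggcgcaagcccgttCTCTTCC
*Rpl6* (chr5:121204401-121204510, plus strand): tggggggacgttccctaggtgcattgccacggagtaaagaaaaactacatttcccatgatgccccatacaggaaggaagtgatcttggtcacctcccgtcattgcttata
*Rpl13a*, *Rpl15* and *Rps6* carry an ETS, NF-Y or SP/KLF string and have a tract of the TOP kind at the start, as do *Rpl34*, whose upstream peaks are described further on, and *Rps10*. In *Rps15a* the YY1 string runs into the tract, in *Rpl22l1* a TATAAA string precedes it, and *Rpl6*, which had the weakest opening per kb among the family's start peaks but for *Rps4l*, shows none of them in this window.

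A RefSeq promoter of 300 bases, 250 before and 50 after the start, lay in 49 of the 66 start peaks, and in 8922 start peaks of all genes. The ETS and GABP string CCGGAAG was in 19 of the 49 (38.8%), against 18.1% of the 8922 and 9.12% of all 27025 gene promoters of the table. A C followed by pyrimidines, 5 or more in all, began at the RefSeq start in 9 of 49 (18.4%), against 2.2% of the 8922. Within 5 bases of that start it began in 21 (42.9%), against 20.4%. Only 13 of the 49 RefSeq starts lay within 5 bases of the start used for the peak, so tracts at other starts may have been missed. The YY1 string AAGATGGC was in 4 of 49 (8.16%), against 4.45%. GGGCGG, read by SP and KLF factors, was in 29 of 49 (59.2%), against 67.2%. The NF-Y string CCAAT was in 16 of 49, against 3475 of the 8922. The E-box CACGTG, read by MYC, was in 4 of 49, against 946 of the 8922. The NRF1 string GCGCATGC was in 2 of 49 (4.08%), against 5.66%. TATAAA, the TATA box, was in 4 of 49 (8.16%), against 6.68%. All strings were searched on both strands, and the tract on the gene's strand only. Among the 49, start peaks with CCGGAAG had a median of 952 normalized counts per kb, and those without it 817. The gap was wider for other strings, at 982.5 with and 687 without GGGCGG, 1050 and 787 for CCAAT, and 1109 and 851 for CACGTG. It went the other way for AAGATGGC (855.9 with, 856.8 without), TATAAA (807.5 and 948.7) and GCGCATGC (624 and 948.7). The median log2 fold change of *Scnn1b*-Tg minus WT was -0.02 for peaks with CCGGAAG, and -0.05 for those without it. These are descriptions of letters in a window, and no binding was measured.

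The family's starts were open in every library. Levels are compared between genes per kb of peak width. The median start peak of the family held 911 normalized counts per kb (quartiles 619 and 1195), against 580 over all start peaks (quartiles 233 and 1031), that is 1.57 times as much, at a similar median width (1329 bp against 1321 bp) and GC content (56.4% against 57.3%). Of the 66, 54 were above the median of all start peaks, 24 were in its top 25% and 1, *Rps4l*, was in its bottom 25%. The family's values also spread less between libraries, with a median coefficient of variation of 12.9% against 16.9%. Its counts were higher too, with a median of 1148 normalized counts per start peak against 776. The large subunit genes had a median of 952 and the small subunit genes of 848 normalized counts per kb. As in every bulk assay, fewer accessible cells and less accessibility per cell cannot be told apart.

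**Figure D1:**
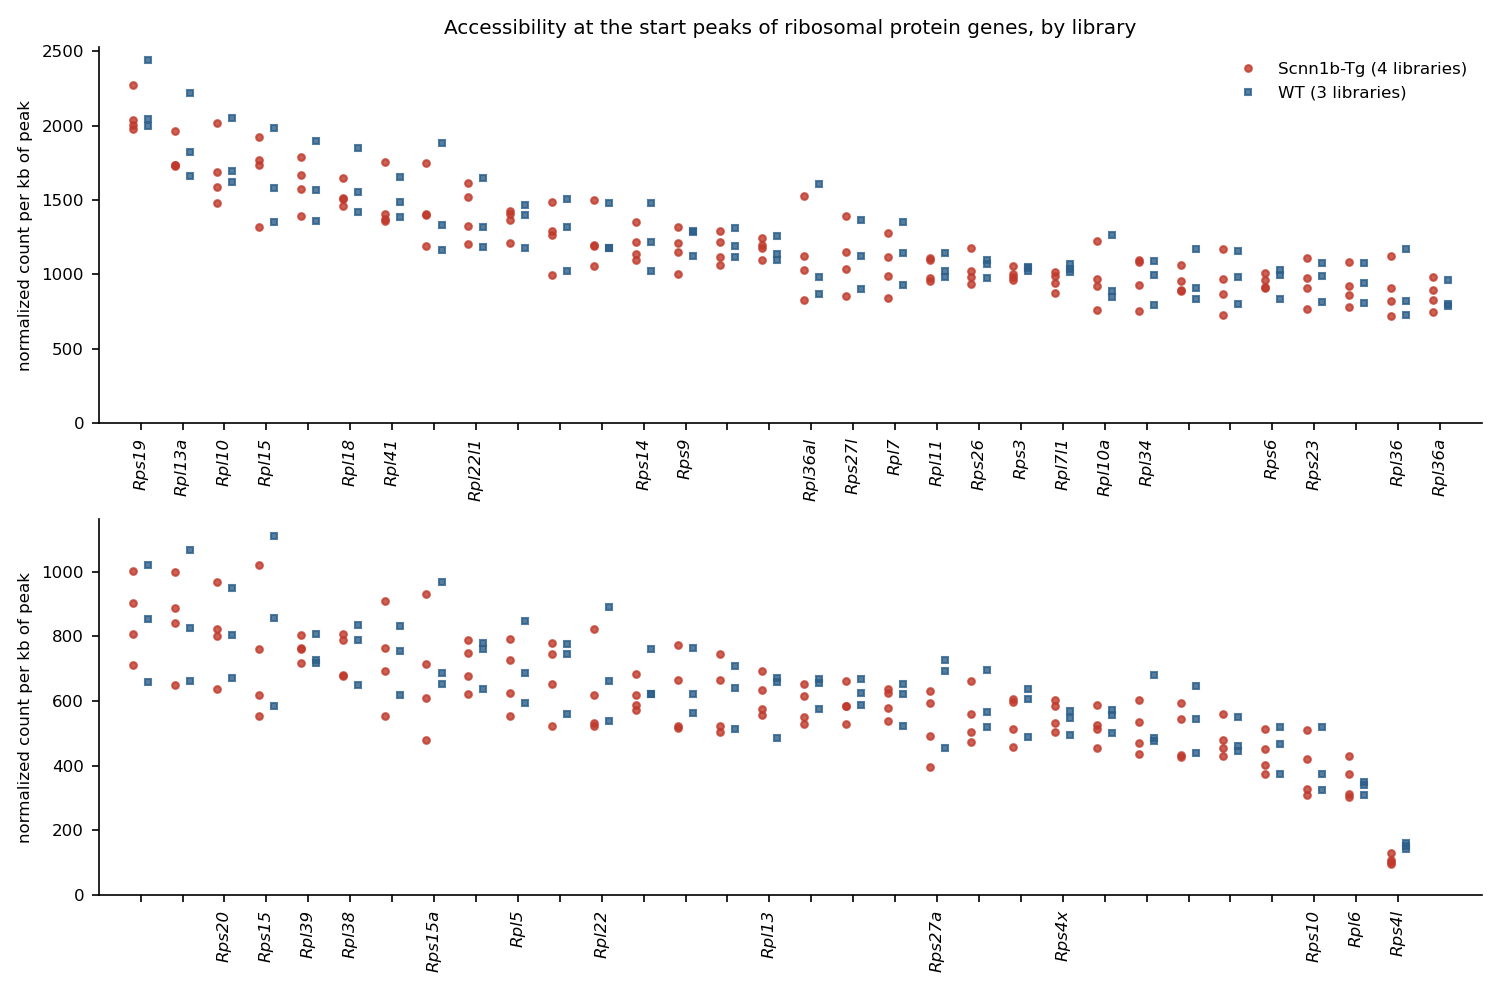
Each column is 1 of 63 start peaks of ribosomal protein genes, ordered by its mean (genes named in the text are labelled), and each point a library (circles, *Scnn1b*-Tg; squares, WT), on a linear axis of normalized counts per kb of peak that has its own range in each row. *Rps19* leads with a mean of 2112 per kb and *Rps4l* is last with 128 per kb, and only at *Rps4l* do the genotypes not overlap.

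The strongest opening per kb was at *Rps19*, a small subunit gene mutated in Diamond-Blackfan anaemia. Its peak (chr7:24883677-24885088, mm10) held 2879, 2796, 2831 and 3212 normalized counts in *Scnn1b*-Tg libraries 1 to 4, against 2887, 2822 and 3449.5 in WT libraries 1 to 3. The genotypes overlapped, and library 4 of *Scnn1b*-Tg and library 3 of WT were the highest of their groups. *Rpl13a*, of the large subunit, had means of 1790.4 per kb in *Scnn1b*-Tg and 1903 per kb in WT. *Rpl10*, whose protein joins the large subunit late and allows it to meet the small one, had the highest count of all with 3618, 3032, 2855 and 2657 in *Scnn1b*-Tg, against 3678, 3048 and 2907 in WT. Here library 1 was the highest and the last library the lowest in both genotypes, unlike at *Rps19*.

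Members with roles outside protein synthesis lay along the same range. *Rps6* encodes the S6 protein that the S6 kinases phosphorylate downstream of mTORC1. It had 1388, 1459, 1373 and 1528 normalized counts in *Scnn1b*-Tg, against 1262, 1513 and 1559 in WT (log2 fold change 0.00, 95% interval -0.28 to 0.27, limma adjusted p = 1.00). *Rpl5* and *Rpl11*, whose proteins bind and restrain MDM2 when ribosome assembly fails, had means of 1016 ± 159 and 1333 ± 104 in *Scnn1b*-Tg (SD, n = 4) and of 1069 ± 194 and 1350.2 ± 108 in WT (SD, n = 3). *Rpl13a*, which in human monocytic cells leaves the ribosome after interferon-gamma to silence inflammatory messages, had 2019.5, 2031, 2029 and 2292 in *Scnn1b*-Tg, against 1945, 2131 and 2597 in WT. *Rps3*, which also acts in DNA repair, had 1459 ± 61.9 in *Scnn1b*-Tg and 1514 ± 20.9 in WT, and *Rpl38*, needed for translation of Hox messages in the mouse embryo, 1289.8 ± 119 and 1324 ± 167. *Rps14* had 1519.8 ± 143 in *Scnn1b*-Tg and 1569 ± 288 in WT, and *Rps26* 1251 ± 126 and 1275 ± 75.8. In each of these the genotypes overlapped and the difference was smaller than the spread between libraries of a genotype, except at *Rps3*, where the WT spread was the smaller.

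Some ribosomal proteins have a near-copy, and these were compared by their start peaks, along with some genes that only have a similar name. *Rpl22l1*, the relative of *Rpl22*, was the more open per kb, with means of 1416 and 1382 in *Scnn1b*-Tg and WT, against 624 and 697 for *Rpl22*. *Rps27l*, a target of p53, had 1108 and 1131 per kb in *Scnn1b*-Tg and WT. The start of *Rps27* itself lay in a peak named after *Rps27rt*, which the naming rule left out. *Rpl36al* had 1126 and 1151 per kb and *Rpl36a* 862 and 849, each in *Scnn1b*-Tg and then WT. *Rpl36*, similar in name only, had 891 and 905 per kb in the same order. *Rpl7* had 1056 and 1141 per kb, and *Rpl7l1* 955 and 1039. *Rpl10a*, similar to *Rpl10* in name only, and *Rpl39* had 969 and 763 per kb in *Scnn1b*-Tg, and 1000.4 and 752 in WT. No peak of the table held an annotated start of *Rpl10l*, *Rpl39l* or *Rpl3l*.

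As a ratio, the X-linked *Rps4x* and its copy *Rps4l* were furthest apart among these pairs. Alone among the 70 genes, *Rps4l* is annotated in GENCODE M21 as a transcribed processed pseudogene and not as protein coding, and reads of such a copy may be shared with its parent gene. *Rps4x* had 557 per kb in *Scnn1b*-Tg and 538 per kb in WT. *Rps4l* had 109.9 and 152 per kb, the lowest start peak of the family. Its peak (chr6:148354246-148355274) held 107, 112, 98.1 and 136 normalized counts in *Scnn1b*-Tg, against 156, 147 and 166 in WT. Every *Scnn1b*-Tg library was below every WT library, and *Rps4l* was the only start peak of the family where the genotypes did not overlap. The log2 fold change was -0.47 (95% interval -0.88 to -0.06), with a limma adjusted p of 1.00 over all 90376 peaks, so it did not pass the test. The gene lies inside *Tmtc1*, and the other peaks assigned to *Rps4l*, in introns of *Tmtc1*, also had negative values. The peak at -9.1 kb (a minus sign marks upstream of the start) had 75.8 ± 24.5 in *Scnn1b*-Tg and 121 ± 49.7 in WT, where the groups overlapped.

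The study asked whether AMs of muco-obstructive mice have a changed chromatin landscape, and for this family the comparison is between genotypes at each peak. No member peak passed an adjusted p under 0.05 in limma (0 of 190), against 1 of all peaks (0.00111%). Of the 190, 6 had an unadjusted p under 0.05, against 2.01% of all peaks. The tests on recovered reads, edgeR's quasi-likelihood test and DESeq2, also called 0 of 190, as did limma without a variance trend and with 1 surrogate variable. Few peaks of any kind were called by these, with 0 of 90376 for edgeR, 47 for DESeq2, 0 for limma without the trend and 72 with the surrogate variable. The study itself, with edgeR in DiffBind, reported differentially accessible regions between the genotypes, most of them more accessible in *Scnn1b*-Tg. The fits here called fewer peaks than the study did. At the starts, 1 of 66 had an unadjusted p under 0.05, which was *Rps4l*, against 0.602% of all start peaks. No member start (0 of 66) was higher without overlap, against 0.484% of all start peaks, and 1 was lower without overlap, against 0.462%.

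The size of the difference was small at nearly every start. The log2 fold change lay between -0.25 and 0.25 at 65 of 66 starts, and at 92.6% of all start peaks. The 95% intervals of 61 of the 66 stayed within a fold of 1.5 in either direction, as did those of 9665 of all 13629 start peaks. The largest positive value was at *Rpl6* (0.08, interval -0.29 to 0.45), followed by *Rps4x* (0.05), *Rpl15* (0.05), *Rpl22l1* (0.04) and *Rpl13* (0.03). After *Rps4l* the most negative values were at *Rps27a*, a fusion of ubiquitin with a small subunit protein (-0.23, interval -0.76 to 0.30), *Rps15* (-0.20, -0.73 to 0.34), *Rps15a* (-0.19, -0.67 to 0.30) and *Rpl22* (-0.15, -0.60 to 0.30). The *Rps27a* peak is only 183 bp wide and lies 206 bp from the start used for it. Another annotated start of *Rps27a* lay in a peak named after *Clhc1*. That peak had a log2 fold change of -0.05 (interval -0.30 to 0.21) and 834 normalized counts per kb.

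**Figure D2:**
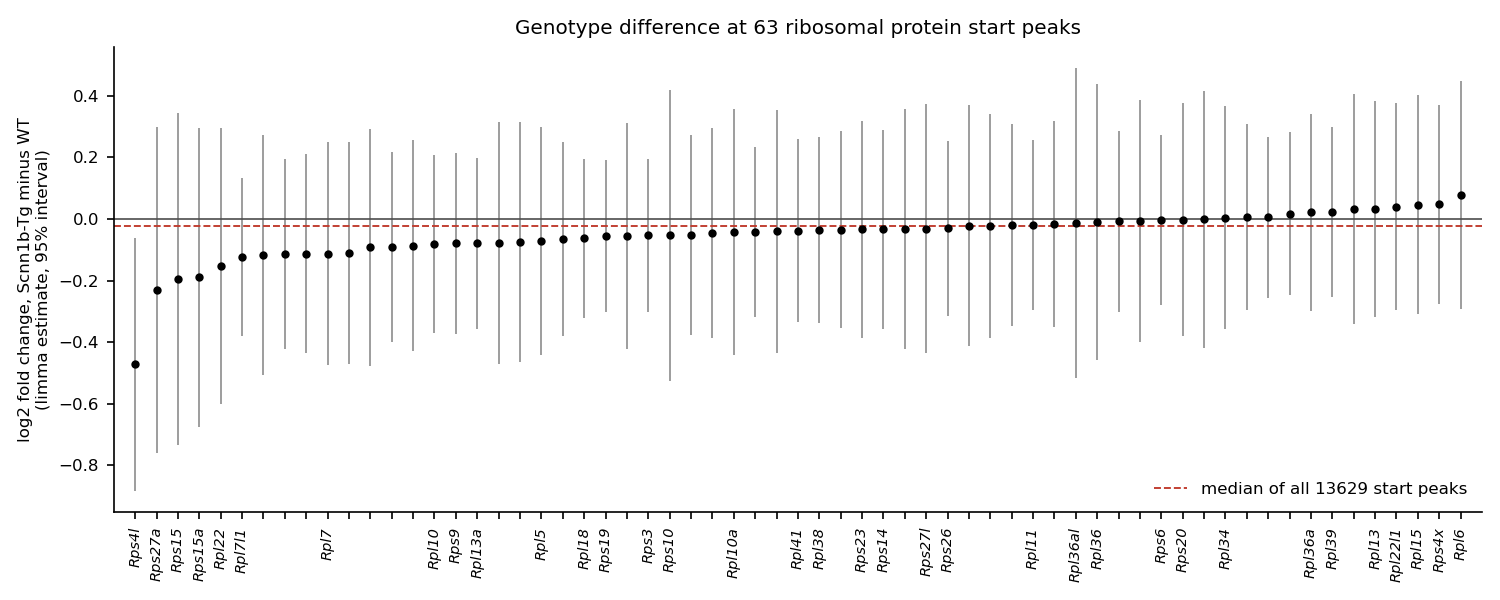
Points are limma log2 fold changes of *Scnn1b*-Tg minus WT at 63 start peaks, ordered by value (genes named in the text are labelled), with 95% intervals as bars, and the dashed line is the median of all start peaks (-0.02). Only the interval of *Rps4l* (-0.88 to -0.06) does not hold 0.

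As a group the starts were slightly lower in *Scnn1b*-Tg, and this direction rested on single libraries. The fold change was negative at 53 of 66 starts, with a median of -0.04, while the median of all start peaks was -0.02 and 38.4% of them were positive. Without WT library 3, 51 of 66 were positive (median 0.05, all start peaks 0.09), and without WT library 1, 3 of 66 were positive (median -0.14, all start peaks -0.13). Without *Scnn1b*-Tg library 4, 5 of 66 were positive, and without *Scnn1b*-Tg library 1, 35 of 66. With each library scaled to the median of all start peaks, 29 of 66 were positive (median 0.00), and after quantile normalization 26 of 66. No direction is therefore given for the family.

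The median start level of the family on the log2(normalized count + 1) scale was 10.07, 10.14, 10.08 and 10.31 in *Scnn1b*-Tg libraries 1 to 4, against 9.97, 10.18 and 10.36 in WT libraries 1 to 3. The means were 10.15 ± 0.11 in *Scnn1b*-Tg (SD, n = 4) and 10.17 ± 0.20 in WT (SD, n = 3), and the groups overlapped, with a difference of -0.02 beside a pooled SD of 0.15. The smallest two-sided p of an exact test of 4 against 3 libraries is 0.0571, so none is given. Relative to the median of all start peaks in the same library, the family stood 0.72, 0.53, 0.57 and 0.52 higher in *Scnn1b*-Tg, against 0.59, 0.57 and 0.55 in WT. The difference of these was 0.02 with a pooled SD of 0.07. The family's starts took 0.23% to 0.275% of all reads in peaks in *Scnn1b*-Tg libraries, against 0.232% to 0.28% in WT libraries.

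**Figure D3:**
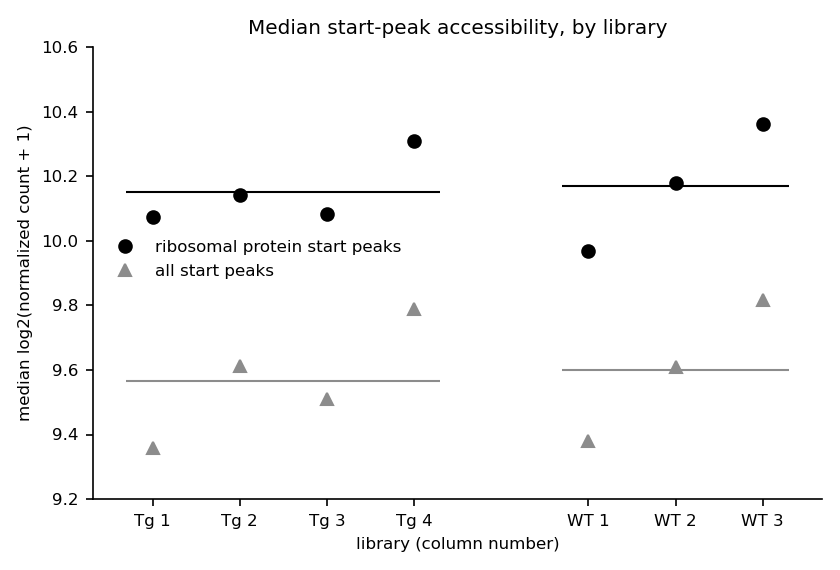
Points are the median log2(normalized count + 1) of the 66 ribosomal protein start peaks (circles) and of all start peaks (triangles) in each library, with *Scnn1b*-Tg on the left, and lines are genotype means on an axis that does not start at 0. Both sets are highest in *Scnn1b*-Tg library 4 (10.31 and 9.79) and WT library 3 (10.36 and 9.82).

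*Scnn1b*-Tg library 4 and WT library 3 stood apart over all peaks, at 101 and 109.6 on a first principal component that held 43.6% of the variance, where the other libraries lay between -90.4 and 8.1. They were the top libraries at the ribosomal protein starts too. At 45 of the 66 starts (68.2%) both lay above the other 5 libraries, against 55.6% of all start peaks. The mean of both was the higher one at 59 of 66. Over the 66 peaks this excess had a median of 0.28 on the log2 scale and followed the GC content of the peak, with a Pearson r of 0.71 and a Spearman rho of 0.59 (n = 66 peaks of the same 7 libraries). Over all start peaks the values were 0.59 and 0.59. Of the peaks with the least GC, those of *Rps27a*, *Rpl10* and *Rpl41* (44.3%, 49% and 48.6%) were lower in these libraries. They were lower by 0.54, 0.22 and 0.15 on the log2 scale, while *Rps26* (48.2%) was 0.005 higher. The GC-rich peaks of *Rpl36al* and *Rps15* (64.6% and 62.1%) were 0.71 and 0.68 higher. *Rpl7*, with 64.7% GC, was 0.40 higher, and *Rps15a*, with 56.1%, was 0.61 higher. Without both libraries 30 of 66 starts were positive (median -0.01), and 0 member peaks passed the threshold. The part of GC content in the genotype values was not tested beyond the fit with each library's GC trend removed, in which 16 of 66 starts were positive.

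**Figure D4:**
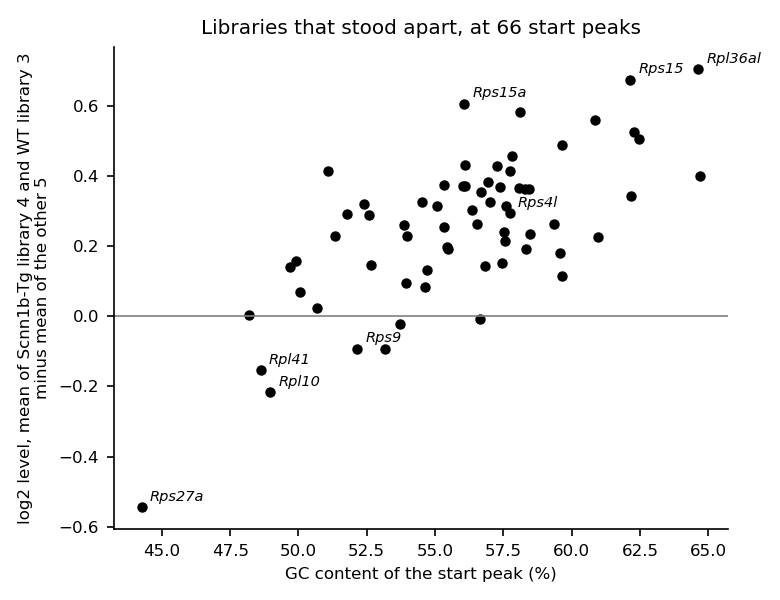
Each point is a ribosomal protein start peak, with its GC content in percent and the log2 level of *Scnn1b*-Tg library 4 and WT library 3 (mean) minus that of the other 5 libraries (mean). Values run from -0.54 at *Rps27a* to 0.71 at *Rpl36al*.

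Other gene groups of translation, from lists drawn up beside the family, showed no call at their start peaks either (0 with an adjusted p under 0.05 in any list). Ribosomal parts named outside the symbol rule (6 with a start peak, *Rplp0*, *Rplp1*, *Rplp2*, *Rpsa* and *Rack1* among them) had log2 fold changes of -0.11 to 0.07. Translation factors and other TOP messages (15 start peaks) had a median of -0.03 on the same scale, ribosome biogenesis genes (34) of -0.02, and mitochondrial ribosomal proteins (59) of -0.04. Among 17 genes that control this family or mTORC1 signalling the median was 0.01. *Rps6kb1*, which encodes the S6 kinase S6K1, stood out there with 247 ± 41.1 in *Scnn1b*-Tg (SD, n = 4) and 119 ± 37.7 in WT (SD, n = 3) and no overlap. Its log2 fold change of 1.08 (95% interval 0.56 to 1.61) had a limma adjusted p of 1.00 and did not pass. Of the 17, 1 was higher without overlap, against 0.484% of all start peaks. The *Rps6kb1* peak was weak, at 135 normalized counts per kb, below the lower quartile of all start peaks (233). *Rps6kb2*, in the same list, had a log2 fold change of -0.23. The starts of *Mtor* (0.02), *Rheb* (0.03), *Larp1* (0.01) and *Myc* (-0.06) had values near 0. Median start levels were 1177 normalized counts per kb for the parts outside the rule, 1116 for the control genes and 853 for the translation factors. They were 686 for biogenesis genes and 677 for mitochondrial ribosomal proteins, beside 911 for the family. Opening above the median of all start peaks was therefore not particular to the family.

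A further 13 ribosomal protein genes, *Rps27a* included, had an annotated start in a peak named after another gene, in several cases a small nucleolar RNA or a neighbouring gene. Their fold changes ran from -0.15 to 0.06 with a median of -0.05, and their median level was 894 normalized counts per kb. *Rps21* and *Rps25*, in peaks named after *Mir3091* and *Trappc4*, were the most open of these. Of the 66 start peaks, 10 also held the start of another protein-coding gene, such as *Rpl15* with *Nkiras1* and *Rpl18* with *Sphk2*, so their reads serve both promoters. Their median log2 fold change was -0.05, against -0.03 for the other 56.

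Cell markers were read at their own start peaks. Of 16 alveolar macrophage markers 15 had a start peak, with a median of 755 normalized counts per kb and sums of 12432 to 18521 in *Scnn1b*-Tg libraries and 12974 to 17616 in WT libraries. None of 4 eosinophil markers had one (0 of 4). Of 8 neutrophil markers 5 had one, with a median of 77.1 normalized counts per kb (20.7 normalized counts). Their sums were 1374 to 1615 in *Scnn1b*-Tg and 1409 to 1703 in WT. Most of this was *S100a8*, with 1187 ± 128 in *Scnn1b*-Tg and 1293 ± 170 in WT (974 per kb). The log2 fold changes of the 5 went both ways, from -0.25 at *Camp* and -0.12 at *S100a8* to 0.28 at *Cxcr2* and 0.47 at *S100a9*, and none passed the test (0 of 5). *Cxcr2* alone of the 5 did not overlap (259 ± 19.5 in *Scnn1b*-Tg, 214 ± 13.2 in WT), and 0.484% of all start peaks were higher without overlap. Sums were 1999 to 2663 in *Scnn1b*-Tg and 1910.0 to 2625 in WT for lung epithelial markers (5 of 8 with a start peak), and 1931 to 2969 and 2021 to 2890 for T and B cell markers (2 of 7). Monocyte and interstitial macrophage markers (6 of 8) had sums of 3446 to 3799 in *Scnn1b*-Tg and 3427 to 3547 in WT. Median levels per kb were 263 for the epithelial, 720 for the T and B cell and 171 for the monocyte and interstitial macrophage markers. The T and B cell markers with a start peak were thus nearly as open as the alveolar macrophage markers. The part of these cells in the values of the family was not tested.

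Away from promoters the table assigned 101 peaks to 36 of the genes, with a median distance of 15.7 kb and 71 of them over 10 kb from the start. The assignment is to the nearest start, and many of these peaks lie in another gene. At these peaks the median level was 118 normalized counts per kb, against 138 over all peaks away from promoters. The log2 fold change was positive at 47 of 101, with a median of -0.02, against 0.00 for all. The median level by library was 71.8, 78.0, 77.5 and 78.0 normalized counts in *Scnn1b*-Tg, against 73.1, 75.9 and 77.6 in WT. Of the 101, 5 had an unadjusted p under 0.05, against 2.37% of all peaks away from promoters. The genotypes did not overlap at 6 peaks with *Scnn1b*-Tg higher, against 2.31%, and at 1 peak with *Scnn1b*-Tg lower, against 1.48%.

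Of the 6 peaks that were higher without overlap, 4 belong to a row of 9 peaks upstream of *Rpl34*, a large subunit gene. The 9 lie between -169.3 and -63.8 kb from its start, and the 5 furthest lie in the body of the non-coding gene *2010110G14Rik*. The peak at -143.3 kb (chr3:130873652-130874327) held 67.0, 79.8, 101 and 59.6 normalized counts in *Scnn1b*-Tg, against 47.6, 34.4 and 44.5 in WT, a log2 fold change of 0.84 (95% interval 0.28 to 1.39). The peak at -97.6 kb held 47.5, 53.5, 122 and 68.2 in *Scnn1b*-Tg, against 42.5, 36.8 and 34.3 in WT (0.83, interval 0.14 to 1.52). The peak at -157.5 kb had a log2 fold change of 0.68 (interval -0.02 to 1.38) at a mean of 22.3 normalized counts. At -148.4 kb the log2 fold change was 0.51 (interval 0.01 to 1.02), at a mean of 77.4. Of the 9, 7 were higher on average, and their median log2 fold change was 0.51. Summed over the 9 peaks, the libraries held 707, 791, 1017 and 669 normalized counts in *Scnn1b*-Tg, against 602, 625 and 583 in WT. The promoter of *Rpl34* itself, printed above, had a log2 fold change of 0.00 (interval -0.36 to 0.37). None of the 9 passed the adjusted threshold (limma adjusted p = 1.00), and neighbouring peaks are not independent.

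**Figure D5:**
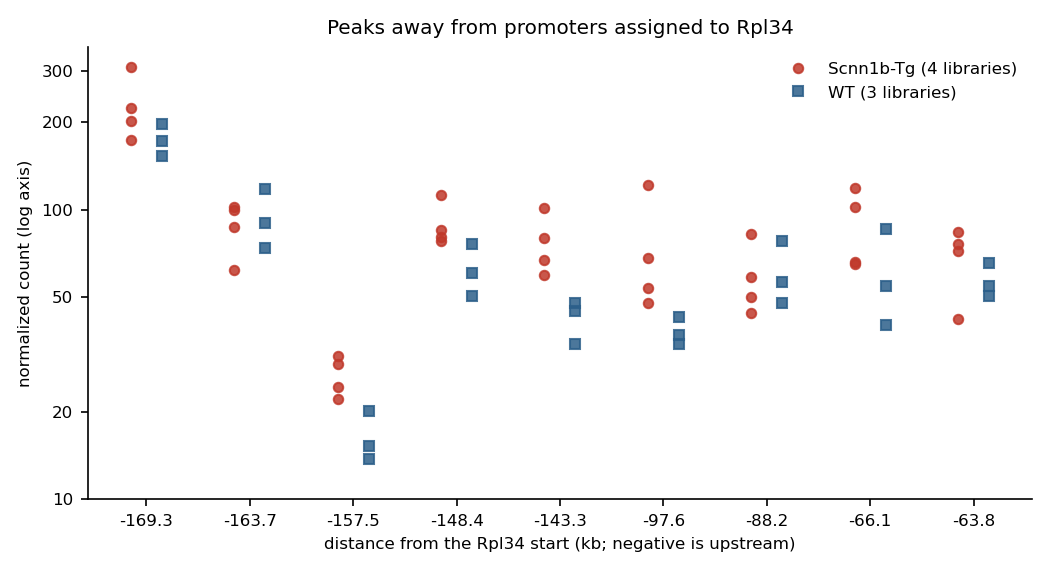
Columns are the 9 peaks away from promoters assigned to *Rpl34*, by distance from its start in kb, and points are libraries (circles, *Scnn1b*-Tg, left; squares, WT, right) on a log axis of normalized counts. At -157.5, -148.4, -143.3 and -97.6 kb every *Scnn1b*-Tg library lies above every WT library.

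Other member peaks of small p away from promoters were, like the *Rpl34* peaks described above, few-read regions. The peak at -23.5 kb from *Rps3* (chr7:99507217-99507568) held 31.6, 20.9, 42.7 and 41.8 normalized counts in *Scnn1b*-Tg, against 5.95, 4.74 and 28.5 in WT. WT library 3 lay within the *Scnn1b*-Tg values and the other WT libraries far below them. The log2 fold change was 1.69 (interval 0.50 to 2.87, limma adjusted p = 1.00), the largest of the family, and 2.43 without WT library 3. The peak 43.2 kb downstream of the *Rps23* start, in an intron of the autophagy gene *Atg10*, held 65.7, 42.6, 39.5 and 49.7 in *Scnn1b*-Tg, against 84.2, 93.7 and 67.4 in WT (-0.73, interval -1.27 to -0.18). It was the peak lower without overlap, and all 5 peaks away from promoters assigned to *Rps23* had negative values, -0.23 to -0.73. A peak at -25.9 kb from *Rpl15*, in an intron of *Ube2e1*, was higher without overlap (65.2 ± 10.8 in *Scnn1b*-Tg, 45.8 ± 10.0 in WT). So was one of higher counts at -10.9 kb from *Rps14* (596 ± 7.29 and 532 ± 36.7), which was not among the 10 of smallest p.

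At the most open peaks away from promoters the genotypes overlapped, and none of these passed the test. A peak 16.0 kb from the *Rpl5* start, in an intron of *Fam69a*, held 2611, 2276, 2285 and 2425 normalized counts in *Scnn1b*-Tg, against 2719.6, 2272 and 2378 in WT. It was more open per kb than any start peak of the family, at 2599.7 in *Scnn1b*-Tg and 2662 in WT, and its log2 fold change was -0.03 (interval -0.28 to 0.22). Another in the same gene, 19.9 kb from the *Rpl5* start, had 871 ± 97.1 in *Scnn1b*-Tg and 936 ± 59.0 in WT. The peaks at -29.2 and -7.0 kb from *Rps14* had 915 ± 101 and 819 ± 132 in *Scnn1b*-Tg, and 966 ± 172 and 722 ± 117 in WT. The log2 fold change at -7.0 kb was 0.18 (interval -0.20 to 0.56). The peak 6.5 kb from the *Rps9* start, in the gene of the inhibitory myeloid receptor *Pirb*, had 839 ± 57.2 in *Scnn1b*-Tg and 902 ± 63.4 in WT. Of the *Rps20* peaks, 6 lie in *Lyn*, a Src-family kinase of myeloid cells. In these peaks the genotypes overlapped, and the nearest-start assignment says nothing of which promoter they serve.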

How the data were processed

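ATAC-seq was performed on sorted AMs in 4 *Scnn1b*-Tg and 3 WT samples. The authors aligned reads to mm10 with the ENCODE pipeline, built consensus peaks and counted reads with DiffBind, scaled the counts by 1 TMM factor per library and annotated peaks with ChIPseeker, per the study's methods. The deposited signal is thus a normalized read count per peak, and 100% of values were whole multiples of 1 value per column, the worth of 1 read (tolerance 1e-06 of the value), so whole reads were recovered. The authors' own columns of mean concentration, fold change, p-value and FDR were not used. No label ties the number in a column name to a sample, so the 4 batches of the labels could not be fitted. P-values measure the spread between these samples, and the study states that its experiments used biological replicates.

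Peaks were tested with limma 3.58.1 (R 4.3.3; trended, robust variances) on log2(normalized count + 1), which understates changes of low peaks, fitting genotype alone, and p-values were adjusted across the 90376 peaks by the Benjamini-Hochberg method. Values after ± are SDs, and intervals are 95%. Named peaks were the 5 highest and 5 lowest start peaks by mean, the 5 highest and 5 lowest by fold change (mean at least 20), the 10 smallest p, the 5 strongest away from promoters and 30 genes fixed by role. *Rps6kb1*, *Cxcr2* and other genes outside the family come from the lists, and *Rpl41*, *Rps21*, *Rps25* and the peaks described for GC content, host genes or non-overlap were chosen after their values were seen. Motifs were searched in RefSeq promoters (GRCm38.p6), and gene bodies were taken from GENCODE M21. Alternatives were pseudocounts of 0.5 and 5, a minimum mean of 20, quantile, median and start-median scaling, a GC trend removed per library, edgeR 4.0.16, DESeq2 1.42.0, limma without trend, a fit with 1 surrogate variable from sva 3.50.0, leaving out every library in turn, and both libraries that stood apart left out. A few members are not reported by name here and were left out of the plots by gene. The members and lists were chosen with earlier results of these data known.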

Additional observations from a re-analysis of the deposited data

Results flagged for a closer look

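At the *Rpl13a* start, *Scnn1b*-Tg library 4 held 2292.44 normalized counts while the other *Scnn1b*-Tg libraries held 2019.5 to 2031, a gap of 95.9% of the group's range. *Scnn1b*-Tg library 1 was low in the median over the 101 peaks away from promoters, at 71.8 normalized counts against 77.5 to 78.0 in the other *Scnn1b*-Tg libraries, or 6.19 against 6.29 to 6.30 on the log2 scale. These were 3 of 56 sets of 4 values examined, and chance gives about 5%.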

How the results depend on the processing

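No member peak passed the adjusted threshold under any of the 19 alternatives. The count at an unadjusted p under 0.05, 6 of 190, was 11 with 1 surrogate variable and 4 to 9 otherwise. The difference of the median start level, -0.02, ranged from -0.12 to 0.08 when 1 library was left out, that relative to all start peaks from -0.03 to 0.04, and that away from promoters from -0.01 to 0.04. The log2 fold change took both signs over the fits with 1 library left out at 26 of 31 named start peaks and at 3 of 15 other named peaks. Among the peaks named for a high or low fold change or a small p, these were *Rpl6* (log2 fold change -0.021 to 0.149), *Rps4x* (-0.011 to 0.092), *Rpl15* (-0.084 to 0.193), *Rpl22l1* (-0.065 to 0.174), *Rpl13* (-0.116 to 0.113), *Rps15* (-0.443 to 0.022) and *Rpl22* (-0.323 to 0.040). Over the whole table limma called 1 peak, edgeR 0, DESeq2 47 and the surrogate variable fit 72. *Rps4l* at its start stayed between -0.56 and -0.41 and the *Rps3* peak at -23.5 kb between 1.25 and 2.43. No paired analysis was possible because the replicate numbers of the labels are not carried by the columns. The number of libraries limits the precision.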
